A study of Mus musculus with 6 samples.

Results

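The 10 genes described here mark white adipocytes and their stored fat: Pparg, Cebpa, Plin1, Plin4, Cidec, Lipe, Fabp4, Adipoq, Cfd and Lep. Which cells of the tendon samples made their reads was not measured. They were taken as a list of gene symbols from the RNA-seq count table of Achilles tendon, in which all 10 of them were found among 53726 distinct features. RNA-seq was carried out on Achilles tendon total RNA of 4-week-old mice of 3 genotypes, with 1 library per genotype. The Control was Dicer f/f, which carries floxed Dicer alleles and no Cre. ScxHt was ScxCre/+ Knock In with Dicer +/+, so it carries Cre and intact Dicer. Dicer cKO was ScxCre/+ Knock In with Dicer f/f. ScxHt and Dicer cKO therefore share the ScxCre knock-in, and Control and Dicer cKO share the floxed alleles. The Cre is under control of the Scx gene, a tenocyte gene, and whether the adipocytes of these samples lost Dicer was not measured. Dicer cuts precursor miRNAs into mature ones. Dicer cKO differs from Control by the knock-in and the loss of Dicer, ScxHt differs from Control by the knock-in and by having no floxed alleles, and Dicer cKO differs from ScxHt in its Dicer alleles, so that only the last comparison holds the knock-in constant.

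White adipocytes store triglyceride in a single large lipid droplet and release fatty acids from it on demand. The nuclear receptor PPARγ and the transcription factor C/EBPα drive adipocyte differentiation and keep the genes for droplet proteins, fatty acid handling and secreted hormones switched on. Fat lies beside the Achilles tendon and in its loose connective tissue, so that adipocyte transcripts can be present in whole-tendon RNA.

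The libraries held 14959399 to 16244232 counts. With 1 library per genotype there was no spread between mice to test against, so no p-value is given, and each 95% interval below covers counting error only. Reads are not independent molecules, so these intervals are narrower than the true error. The count of Dicer1 over the whole gene, which does not separate the floxed part, was 1919 in Control, 2025 in ScxHt and 1621 in Dicer cKO. Its Dicer cKO/Control ratio was 0.877 (0.821 to 0.938). The tendon transcription factor Scx, the locus of the Cre, had 1055, 686 and 371 reads in the same order. The tendon genes Tnmd, Fmod and Thbs4 had at least 9668 reads each in every library, which bears on the tissue label and not on the genotype. Skeletal muscle reads were also present and differed between libraries. The muscle gene Ttn had 688745 reads in Control, 329060 in ScxHt and 1062032 in Dicer cKO. Keratinocyte genes were at or near 0 (Krt5 at 0 in all 3 libraries, Krt14 at 0, 0 and 2 reads).

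A ratio is the quotient of counts divided by size factors estimated on the 2 libraries compared. Features needed a mean normalized count above 50, which all 10 adipocyte genes exceeded in every comparison. A gene was called higher above a ratio of 1.67 and lower below 0.60. In bulk RNA, fewer adipocytes and less RNA per adipocyte cannot be told apart.

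Adipocyte transcripts were present in all 3 libraries, and 9 of the 10 genes stayed within the fold limits in every comparison. Lep, which encodes the hormone leptin, was the exception and was lower in Dicer cKO than in both other libraries. Its ratio was 0.425 (0.371 to 0.487) to Control and 0.431 (0.377 to 0.493) to ScxHt. Cidec, which encodes a protein that fuses lipid droplets, had the highest ratio in Dicer cKO/Control and in ScxHt/Control, 1.53 and 1.58. Apart from these, the ratios to Control of the other 8 genes ran from 0.821, for Pparg in ScxHt, to 1.33, for Adipoq in ScxHt.

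Counted over the 10 genes, Dicer cKO/Control gave 0 called higher and 1 called lower. Of all 13404 features tested, 3.87% were called higher and 4.19% lower. The counting interval lay above 1 for 4 of the genes and below 1 for 4, against 21.6% and 28.5% of all features. The median ratio of the genes was 1.0, and that of all features 0.977. In ScxHt/Control none of the 10 genes was called, while 3.03% of 13462 features were called higher and 4.71% lower. Intervals wholly above 1 were found for 6 of the 10 and wholly below 1 for 2, against 26.4% and 23.8% of features, and the median ratio was 1.103 against 1.01. In Dicer cKO/ScxHt, 0 genes were called higher and 1 lower, against 7.68% and 5.68% of 13455 features. Plin4 alone had an interval above 1 and 5 genes had one below it, against 24.9% and 30.6% of features. The median there was 0.940 for the genes and 0.976 for all features. The 3 comparisons share libraries, so their values are given side by side and are not independent.

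**Figure D1:**
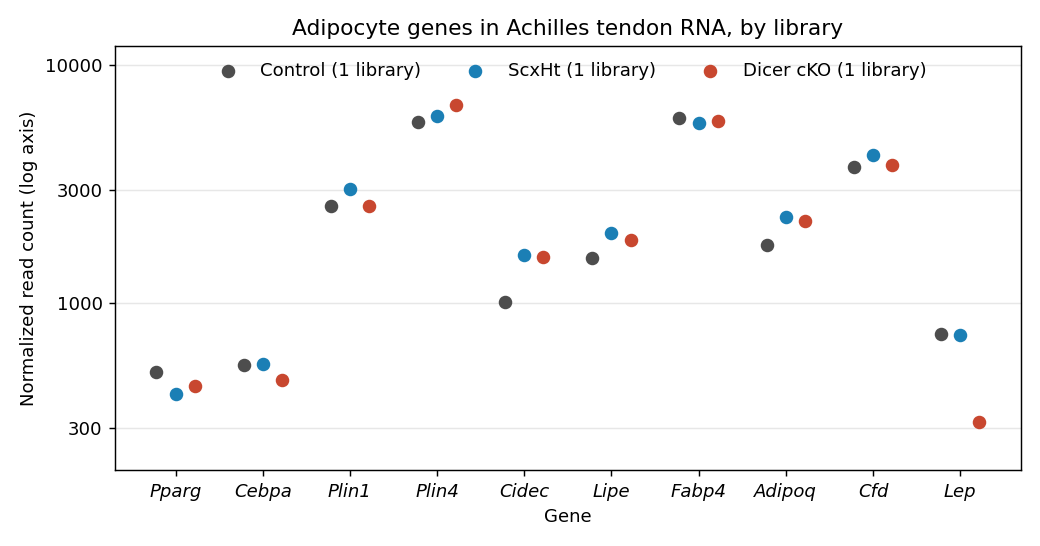
Normalized read count (log axis) of each of the 10 adipocyte genes, with 1 point per library and the genes ordered by role. For Lep the Dicer cKO point, at 319.97, sits apart from the Control and ScxHt points at 744.5 and 738.1, and for Cidec the Control point, at 1017, sits below the other two.

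Among the transcription factors, Pparg (chromosome 6, 115360951 to 115490399, plus strand, GRCm38) had 517 reads in Control, 443 in ScxHt and 433 in Dicer cKO. The 3 values lay close together, with Control the highest. The Dicer cKO/Control ratio was 0.870 (0.764 to 0.990), the ScxHt/Control ratio was 0.821 (0.721 to 0.934), and the interval of Dicer cKO/ScxHt, 0.941 to 1.23, held 1. So both libraries with the knock-in had fewer Pparg reads than Control, by less than the fold limit. Cebpa (chromosome 7, 35119293 to 35121928, plus strand), whose product works with PPARγ, had 554, 590 and 456 reads in the order Control, ScxHt and Dicer cKO. It was lowest in Dicer cKO, with a ratio of 0.855 (0.753 to 0.969) to Control and 0.852 (0.752 to 0.964) to ScxHt. ScxHt and Control had near-equal values, with a ratio of 1.02 (0.907 to 1.15). An antisense gene, Gm45091, shares 51 exonic bases with Cebpa.

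The droplet coat proteins gave 2 patterns. Plin1 (chromosome 7, 79720218 to 79732903, minus strand), which guards the droplet against lipases, had 2559 reads in Control, 3204 in ScxHt and 2447 in Dicer cKO. ScxHt was the high library, at 1.20 (1.14 to 1.26) times Control, and Dicer cKO and Control were near-equal at a ratio of 0.993 (0.939 to 1.05). Plin4 (chromosome 17, 56100591 to 56109803, minus strand), another perilipin of the droplet surface, had 5771, 6450 and 6500 reads. Both libraries with the knock-in were above Control, at 1.07 (1.03 to 1.11) in ScxHt and 1.17 (1.13 to 1.21) in Dicer cKO. Plin4 shares 17 exonic bases with Hdgfl2 on the other strand, which had at most 518 reads in a library.

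Cidec (chromosome 6, 113424634 to 113435760, minus strand) had 1020 reads in Control, 1686 in ScxHt and 1500 in Dicer cKO. The Control library was the low one, and the libraries with the knock-in were near each other. The ratio to Control was 1.58 (1.46 to 1.71) in ScxHt and 1.53 (1.41 to 1.66) in Dicer cKO, and that between Dicer cKO and ScxHt was 0.980 (0.914 to 1.05). With total counts as the scale, the ScxHt/Control value of Cidec passed the limit for a higher call, at 0.77 on the log2 scale.

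Lipe (chromosome 7, 25379527 to 25398710, minus strand) encodes hormone-sensitive lipase, which breaks down stored fat. It had 1549, 2098 and 1766 reads in Control, ScxHt and Dicer cKO. The ratio to Control was 1.30 (1.21 to 1.39) in ScxHt and 1.18 (1.11 to 1.27) in Dicer cKO. An antisense gene, 4732471J01Rik, shares 918 exonic bases with Lipe. As the strand setting of the counting is not given in the sources used here, reads of Lipe, Cebpa and Plin4 cannot be told apart from those of the genes on the other strand where their exons overlap. Fabp4 (chromosome 3, 10204088 to 10208576, minus strand), the fatty acid carrier of the adipocyte cytosol, was the most even of the genes, with 6011, 6033 and 5569 reads. Its ratio to Control was 0.961 (0.927 to 0.996) in ScxHt and 0.962 (0.927 to 0.998) in Dicer cKO, and both moved above 1 with total counts as the scale, to 0.05 and 0.01 on the log2 scale.

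**Figure D2:**
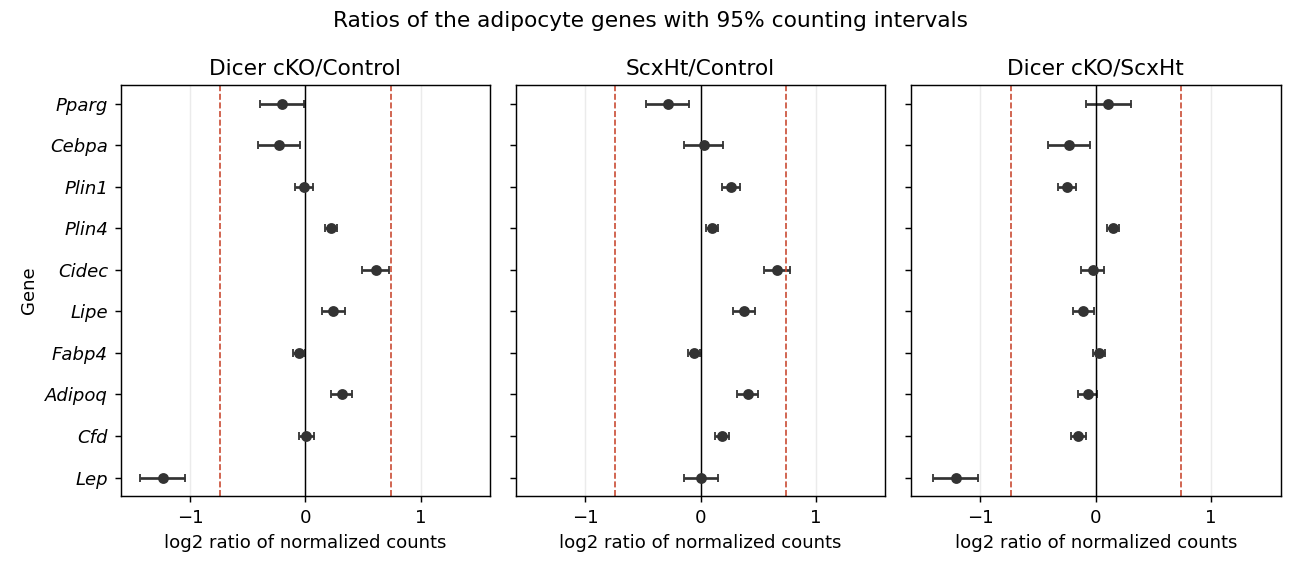
log2 ratio of normalized counts of each adipocyte gene in the 3 comparisons, with bars for the 95% counting interval (1 library per genotype) and dashed lines at the fold limits of 0.60 and 1.67. Lep lies past the lower limit in Dicer cKO/Control (-1.23) and Dicer cKO/ScxHt (-1.21) and at 0.00 in ScxHt/Control, and no other point is past a limit.

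Among the secreted products, Adipoq (chromosome 16, 23146536 to 23158028, plus strand), which encodes the hormone adiponectin, had 1766 reads in Control, 2446 in ScxHt and 2114 in Dicer cKO. Control was the lowest, and the ratio was 1.33 (1.25 to 1.41) in ScxHt and 1.24 (1.17 to 1.32) in Dicer cKO. Cfd (chromosome 10, 79890853 to 79892655, plus strand), which encodes the complement protease adipsin, had 3738, 4434 and 3622 reads. Its ScxHt value was above the other two, at 1.14 (1.09 to 1.19) times Control, and the Dicer cKO/Control ratio was 1.01 (0.961 to 1.05).

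Leptin signals the size of the fat store to the brain, and its mRNA is known to follow the lipid content and nutritional state of adipocytes. Lep (chromosome 6, 29060220 to 29073877, plus strand) had 747 reads in Control, 782 in ScxHt and 306 in Dicer cKO. The Control and ScxHt values were alike in size, with a ratio of 1.0 (0.906 to 1.11), and the Dicer cKO value lay far under both. Lep and Adipoq differed in Dicer cKO, where Adipoq was above Control and Lep below it.

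The Lep promoter is shown because Lep was the one gene called, that of Cidec because it had the highest ratios, and that of Adipoq because its reads serve as the reference for Lep within each library. Each runs from 250 bases before to 50 bases after a transcript start, 5′ to 3′ on the gene's strand, from RefSeq on GRCm38.p6. Capitals mark matches to TTGCNNAA, the core letters bound by C/EBP factors.
Lep, chr6:29059971-29060270, plus strand: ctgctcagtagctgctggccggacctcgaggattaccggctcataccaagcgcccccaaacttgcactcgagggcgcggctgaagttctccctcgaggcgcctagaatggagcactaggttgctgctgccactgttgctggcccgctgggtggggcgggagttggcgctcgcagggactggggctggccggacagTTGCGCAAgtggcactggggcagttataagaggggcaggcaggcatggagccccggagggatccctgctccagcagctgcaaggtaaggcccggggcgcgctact
Cidec, chr6:113434715-113435014, minus strand, the downstream of its 2 listed starts (the upstream one has no match): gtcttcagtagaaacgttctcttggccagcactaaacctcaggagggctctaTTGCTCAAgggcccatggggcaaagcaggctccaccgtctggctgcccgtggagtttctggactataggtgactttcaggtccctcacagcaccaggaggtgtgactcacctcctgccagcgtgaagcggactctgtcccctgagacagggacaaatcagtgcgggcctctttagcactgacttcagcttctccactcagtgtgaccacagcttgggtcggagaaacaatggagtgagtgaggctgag
Adipoq, chr16:23146286-23146585, plus strand: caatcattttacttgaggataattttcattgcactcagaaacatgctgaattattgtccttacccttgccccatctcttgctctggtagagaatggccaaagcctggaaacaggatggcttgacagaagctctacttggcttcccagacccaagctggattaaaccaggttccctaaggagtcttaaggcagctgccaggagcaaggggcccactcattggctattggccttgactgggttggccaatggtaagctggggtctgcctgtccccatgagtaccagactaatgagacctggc

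Promoters were listed for 9 of the 10 genes, 13 in all, and Fabp4 had no entry. Searched on both strands, TTGCNNAA was found in 4 of the 13, of Lep, Cidec, Plin1 and Pparg. It was in 10.8% of all 32851 promoters of this length. In Lep the match was the palindrome TTGCGCAA, which starts 55 bases before the transcript start. That palindrome was in 0.183% of all promoters and in no other of the listed adipocyte promoters, and each match to it is also a match to TTGCNNAA. No share was taken for the fixed letters of the other matches, so this low share cannot set Lep apart from them. CCCNNGGG, the letters bound by EBF factors, was in 4 of the 13, of Cidec, Plin1 and Plin4, and in 13.7% of all. TATAAA was in 2 of the 13, of Cebpa and Pparg, and in 13.6% of all. AGGNCA is the unit that is repeated in the element bound by PPARγ with its partner RXR. It was in 9 of the 13 promoters, of 6 genes, and in 57.2% of all. A direct repeat of it with a spacer of 1 base was in none of the 13 and in 0.381% of all. These are matches of letters only, and no binding was measured.

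The genes were also set against each other within each library, where the scaling between libraries has no part. This choice of denominator was made after the values had been seen. For every 100 reads of Adipoq there were 42.3 reads of Lep (38.8 to 46.1) in Control, 32.0 (29.5 to 34.7) in ScxHt and 14.5 (12.8 to 16.3) in Dicer cKO. The counting intervals of the 3 libraries did not overlap, and Dicer cKO was the lowest. Between Control and ScxHt the Lep counts themselves were near-equal, and the higher Adipoq count of ScxHt sets that difference. Lep made up 3.08%, 2.78% and 1.24% of the reads of the 10 genes in the same order. Cidec had 57.8 reads per 100 of Adipoq (53.4 to 62.4) in Control, 68.9 (64.7 to 73.4) in ScxHt and 71.0 (66.4 to 75.8) in Dicer cKO, so that the libraries with the knock-in overlapped each other and lay above Control. Pparg had 29.3 (26.5 to 32.3), 18.1 (16.3 to 20.0) and 20.5 (18.4 to 22.7), and Cebpa had 31.4 (28.5 to 34.5), 24.1 (22.0 to 26.4) and 21.6 (19.5 to 23.9). All of the other genes except Cidec were highest per Adipoq read in Control, where Adipoq itself was lowest. Lipe was the most even, at 87.7, 85.8 and 83.5 reads per 100 of Adipoq, with overlapping intervals.

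**Figure D3:**
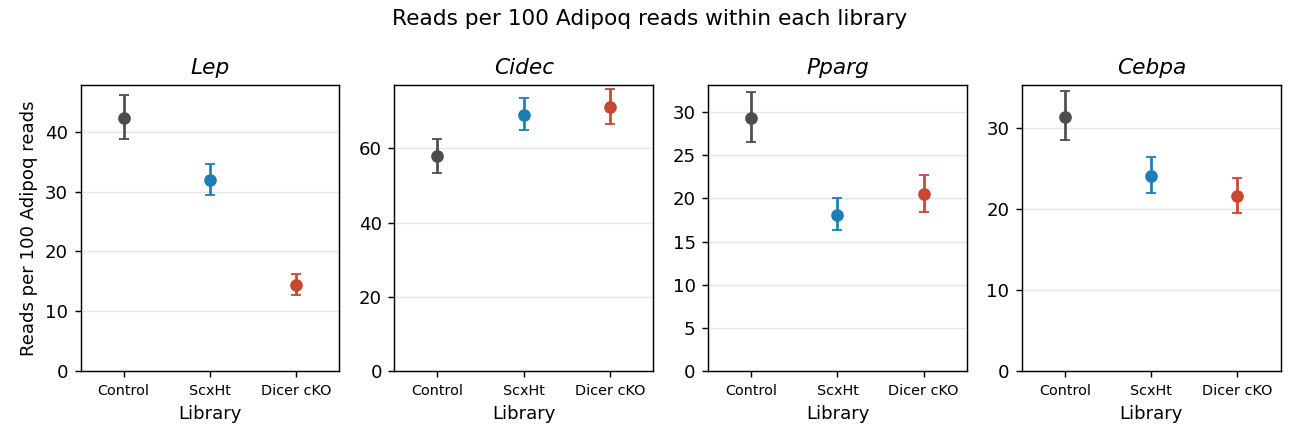
Reads of Lep, Cidec, Pparg and Cebpa per 100 Adipoq reads in each library, each on its own axis from 0, with bars for the 95% counting interval. Lep is at 42.3 in Control, 32.0 in ScxHt and 14.5 in Dicer cKO, while Cidec is lowest in Control, at 57.8.

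Levels between genes were compared per length, in RPKM (reads per kilobase of feature, scaled to the depth of the library). Cfd was the highest of the 10 in every library, at 249.6 in Control, 305 in ScxHt and 263 in Dicer cKO, above 99.2% of the tested features in Control. Adipoq (78.7, 112 and 102), Fabp4 (82.4, 85.2 and 82.9) and Plin4 (61.5, 70.8 and 75.2) followed. The RPKM of Fabp4 was made over its whole gene span of 4489 bases, introns included, so that it is lower than one per exonic length would be. Plin1 and Cidec were next to each other in Control, at 33.9 and 33.8, while in ScxHt Cidec, at 57.6, stood above Plin1, at 43.7. In Dicer cKO these values were 54.0 and 35.2. Lipe came next at 16.2, 22.6 and 20.1. The lowest 3 genes were Lep, Cebpa and Pparg in every library, but not in the same order. In Control and ScxHt, Lep (13.7 and 14.8) stood just above Cebpa (12.9 and 14.2) and Pparg (10.8 and 9.51). In Dicer cKO it was the last of the 10, at 6.10, under Cebpa at 11.6 and Pparg at 9.80. Lep stood above 81.0% of tested features in Control, 80.5% in ScxHt and 56.1% in Dicer cKO. These orders are of single libraries and have no spread between mice.

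All 10 genes together held 24232 reads in Control, 28166 in ScxHt and 24713 in Dicer cKO, which was 0.149%, 0.179% and 0.165% of the library. After normalization their sum was 24151, 26584 and 25841. The sum of these 10 genes was thus within a narrow range, although the markers of other cell types in the same RNA were not. Most of its reads in each library were of Fabp4, Plin4 and Cfd. The 15 further adipocyte genes described below summed to 27122 in Control, 28537 in ScxHt and 32402.5 in Dicer cKO, so the narrow range is not shown for adipocyte genes in general. Most of these reads were of Car3 (16385, 17154 and 17703) and Acsl1 (5042, 5424 and 8074), so this sum is mainly theirs. The summed normalized reads of 8 tendon genes were 1.44e+06 in Control, 1.09e+06 in ScxHt and 781865 in Dicer cKO. Most of them were of Col1a1 (1.26e+06, 873996 and 688212). The ScxHt/Control ratios of the tendon genes had a median of 1.23, with 6 intervals above 1 and 2 below. The sums of 9 skeletal muscle genes were 856893, 442369 and 1.42e+06, mostly of Ttn (686442, 310581 and 1.11e+06). The sums of 6 Schwann cell genes were 3770, 4496 and 11352, of which Pmp22 gave 3086, 3873 and 4184. Those of 5 erythroid genes were 3061, 2885 and 7205. The 6 endothelial genes gave 9774, 6506 and 10874, and the 6 macrophage genes 3008, 5152 and 2339. Of these lists, tendon genes were called lower in 5 of 8 in Dicer cKO/Control, and muscle genes were called higher in 5 of 9, Schwann cell genes in 5 of 6 and erythroid genes in 5 of 5. The Schwann cell gene Mal, with 36, 19 and 390 reads, passed the minimum mean only through Dicer cKO. In ScxHt/Control, 5 of 6 macrophage genes were called higher, while 4 muscle genes were called lower and Myh4 higher. None of the markers of these 6 lists was at 0 in a library. What part these differences in cell content had in the values of the adipocyte genes was not tested.

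**Figure D4:**
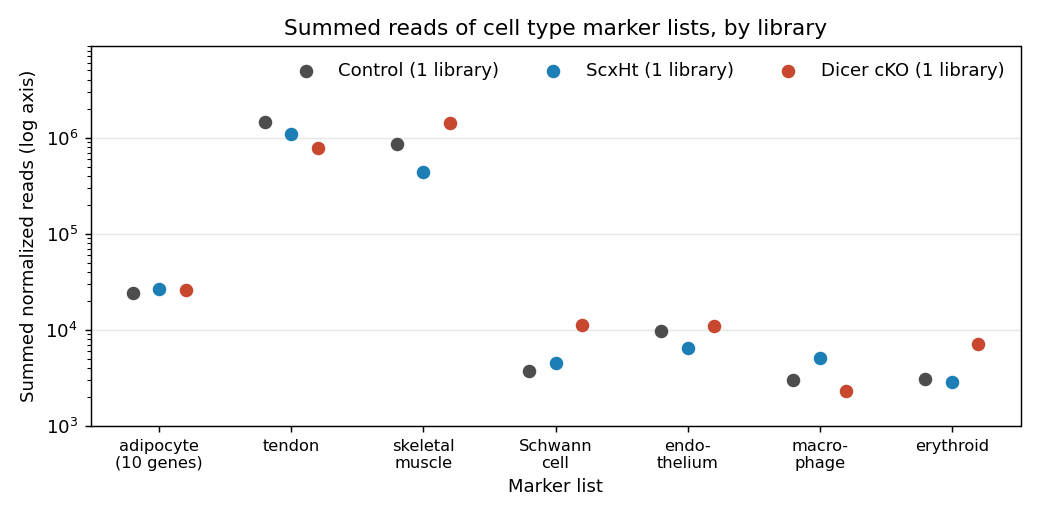
Summed normalized reads (log axis) of the 10 adipocyte genes and of 6 lists of marker genes, with 1 point per library. The sums of the 10 adipocyte genes, 24151 to 26584, lie close together, while the tendon sum is lowest and the muscle, Schwann cell and erythroid sums are highest in Dicer cKO.

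Other genes of the adipocyte were taken from lists and are given against Control. The Dicer cKO/ScxHt ratio, which alone holds the knock-in constant, is given only for the progenitor genes. Of all features, 3.87% were called higher and 4.19% lower in Dicer cKO/Control, and 3.03% and 4.71% in ScxHt/Control. Intervals lay above and below 1 for 21.6% and 28.5%, and for 26.4% and 23.8%, in the same order. A single call in a list is not read as a result about the list. Of 15 further genes of adipocyte identity and secretion, 3 were called higher and 1 lower in Dicer cKO/Control, with a median ratio of 1.32. Those higher were Sfrp5, a secreted Wnt inhibitor (12, 9 and 91 reads in Control, ScxHt and Dicer cKO), Rbp4, the retinol carrier (140, 199 and 398), and Adrb3, the β3-adrenergic receptor (61, 73 and 108). Sfrp5 passed the minimum, with a mean of 52.3, only through its Dicer cKO reads, so its call is not independent of that filter. The lower one was Nnat, neuronatin, with 875, 947 and 423 reads and a Dicer cKO/Control ratio of 0.502 (0.446 to 0.564). Nnat thus had near-equal values in Control and ScxHt and a low one in Dicer cKO, as Lep did. In ScxHt/Control, 1 of the 14 tested genes of this list was called, Adig, which had 49, 114 and 54 reads. Aqp7, the glycerol channel of adipocytes, was the lowest there, with a ratio of 0.665.

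For lipid synthesis, the median Dicer cKO/Control ratios of both lists were above that of the 10 genes, a difference that was not tested. Of 10 genes of fatty acid synthesis, 4 were called higher in Dicer cKO/Control and none lower, with a median ratio of 1.55. The highest was Me1, malic enzyme, with 1351 reads in Control, 1882 in ScxHt and 3056 in Dicer cKO, a Dicer cKO/Control ratio of 2.35. Acly, ATP citrate lyase, was at 1.99, Fasn, fatty acid synthase, at 1.87 and Elovl6, a fatty acid elongase, at 1.82. Srebf1, a transcription factor of this pathway, was the lowest at 0.835. In ScxHt/Control none of the 10 was called, and the range ran from Mlxipl at 0.646 to Me1 at 1.33. Of 12 genes of triglyceride synthesis and droplet formation, 1 was called higher in Dicer cKO/Control, Gpam, the glycerol phosphate acyltransferase that starts this synthesis, with 854, 853 and 1420 reads and a ratio of 1.73. The median of this list was 1.28, its lowest gene was Dgat1, at 0.942, and 10 of the 12 intervals lay above 1. None of the 12 was called in ScxHt/Control, from Agpat9 at 0.785 to Gpd1 at 1.63. These pathways are not particular to adipocytes.

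For fatty acid uptake, 2 of 8 genes were called higher in Dicer cKO/Control, Fabp5, a fatty acid carrier of many tissues, at 1.84 and Fabp3, the carrier of heart and skeletal muscle, at 1.77. The median was 1.34, and Slc27a4 was the lowest at 0.601. In ScxHt/Control the median was 0.883 and Slc27a1, a fatty acid transporter, was the highest at 1.16. Fabp3 had 955, 584 and 1628 reads and was called lower in ScxHt/Control, at 0.586. Its order was that of the muscle, endothelial and erythroid sums given above, and the part of each in it was not tested. Of 9 tested lipolysis genes, Adrb3 was called higher in Dicer cKO/Control and none lower, with a median of 1.09. Abhd5, the cofactor of adipose triglyceride lipase, was the lowest at 0.900. In ScxHt/Control these ran from Aqp7 at 0.665 to G0s2, an inhibitor of that lipase, at 1.51. Adrb3 and Aqp7 are also among the further adipocyte genes above, so the call of Adrb3 is the same one.

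Among 10 other adipogenic transcription factors and partners, 1 was called lower in Dicer cKO/Control and in ScxHt/Control and 0 higher. Cebpd, an early C/EBP factor, was that gene in both, with 770 reads in Control, 399 in ScxHt and 443 in Dicer cKO. Its ScxHt/Control ratio was 0.496 (0.439 to 0.561). Its Dicer cKO/Control ratio of 0.597 (0.530 to 0.672) was just under the limit, and each of the 4 other scalings lifted it above the limit, so that call was lost. The highest of the list were Nr1h3 at 1.28 in Dicer cKO/Control and Nrip1 at 1.45 in ScxHt/Control. The medians of this list were 0.864 and 0.806, and the interval lay below 1 for 6 and for 7 genes. Of 8 tested genes of preadipocytes and stromal progenitors, 2 were called lower in Dicer cKO/Control, Ly6a (515, 536 and 292 reads) and F3 (139, 153 and 79 reads), with a median of 0.666 and 7 intervals below 1. With total counts as the scale neither was called. Icam1 was the highest, at 1.12. In ScxHt/Control none was called and the median was 1.02, with Pdgfra, a receptor of mesenchymal progenitors, the highest at 1.58 and Icam1 the lowest at 0.733. In Dicer cKO/ScxHt, 3 of these 8 were called lower, against 5.68% of all features, with a median of 0.655. Pdgfra was the lowest there, at 0.533, and these calls were not recomputed under other settings. Of 7 adipokine and insulin receptors, 1 was called lower in Dicer cKO/Control. It was Lepr, the receptor of leptin, with 2054, 1989 and 1037 reads and a ratio of 0.524 (0.486 to 0.565). The median of the receptors was 0.937, with Adipor2, an adiponectin receptor, the highest at 1.17. None was called in ScxHt/Control, from Irs1 at 0.741 to Adipor2 at 0.966.

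Of the genes listed for brown and beige fat, some were without reads and others were counted in every library. Ucp1, the uncoupling protein that defines brown and beige fat, and Elovl3 had 0 reads in all 3 libraries, and Cidea had 7, 5 and 3. A count of 0 allows up to 3 reads. Prdm16, a regulator of brown fat, had 174, 173 and 216 reads, Dio2, a thyroid hormone deiodinase, 260, 212 and 178, and Lhx8 263, 275 and 159. Of the 6 genes of this list with enough reads, 3 were called higher in Dicer cKO/Control. These were Ppara (2.28), Ppargc1a (2.23) and Cox8b (1.86), which skeletal muscle also expresses. Their read counts, 76, 49 and 167 for Ppara and 540, 347 and 1160 for Ppargc1a, were lowest in ScxHt and highest in Dicer cKO. That was the order of the muscle sums and also of the endothelial and erythroid sums. Here too the part of muscle RNA or of the others was not tested. Lhx8 was the lowest of the list, at 0.628. In ScxHt/Control none was called, from Ppargc1a at 0.615 to Lhx8 at 1.0.

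**Figure D5:**
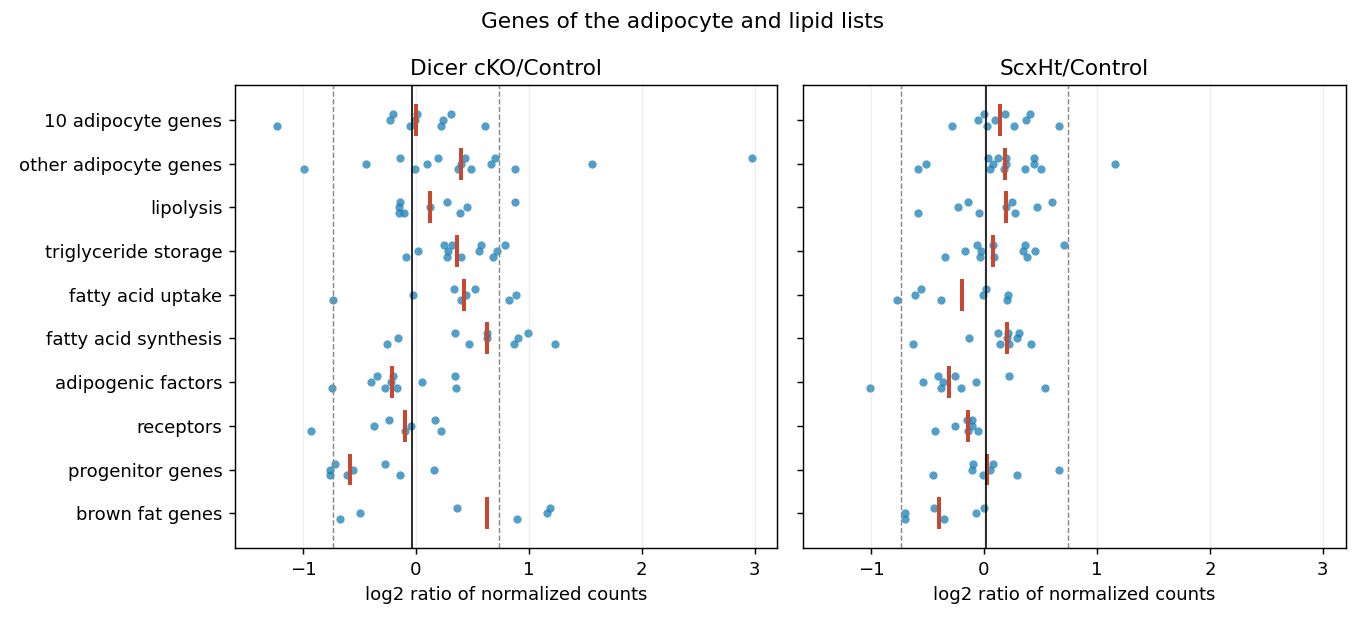
log2 ratio of each gene of the adipocyte and lipid lists (points) in Dicer cKO/Control and ScxHt/Control, with the list median (red bar), the median of all tested features (solid line) and the fold limits (dashed lines). The 10 adipocyte genes centre near the line with Lep far to the left, and in Dicer cKO/Control the fatty acid synthesis genes centre to the right of it at 0.63 and the progenitor genes to the left at -0.59.

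Small RNA-seq of the same tendon samples gave counts for the loci of miR-27 and miR-130, miRNAs known to bind Pparg mRNA and to restrain adipocyte differentiation. Their mature 3p sequences, from RefSeq, are shown to mark the seed that each pair shares, bases 2 to 8, in capitals.
miR-27a-3p, chr8:84208727-84208747, plus strand: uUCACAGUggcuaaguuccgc
miR-27b-3p, chr13:63300760-63300780, plus strand: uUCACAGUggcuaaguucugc
miR-130a-3p, chr2:84741116-84741137, minus strand: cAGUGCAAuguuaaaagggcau
miR-130b-3p, chr16:17124071-17124092, minus strand: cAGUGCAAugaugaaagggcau

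Counts are per locus, so the arms of a hairpin were not separated. Mir27b had 38521 reads in Control, 37972 in ScxHt and 27336 in Dicer cKO, a Dicer cKO/Control ratio of 0.813 (0.801 to 0.826). Mir27a had 4798, 5122 and 4052 reads, with a ratio of 0.968 (0.928 to 1.01). Mir130a had 1426, 1361 and 1591 reads, with a ratio of 1.28 (1.19 to 1.37). Mir130b had only 18, 20 and 24 reads, and its interval of 0.795 to 2.99 allows no direction. In Dicer cKO/ScxHt, which holds the knock-in constant, the ratio was 0.720 (0.709 to 0.731) for Mir27b and 0.791 (0.759 to 0.825) for Mir27a. It was 1.17 (1.09 to 1.26) for Mir130a and 1.20 (0.635 to 2.29) for Mir130b. None of the loci passed a fold limit in either comparison. The median over the 334 small RNA features tested was 0.984 in Dicer cKO/Control, with 4.19% of them below 0.60. In Dicer cKO/ScxHt it was 0.996 over 322 features, with 2.17% below 0.60.

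Genes were sought near the point set by the median log2 ratios of the 10 adipocyte genes in ScxHt/Control and Dicer cKO/Control, 0.14 and -0.00. That point is not the pattern of each of the 10. Cfd lay near it, at 0.18 and 0.01, but Cidec lay at 0.66 and 0.61 and Lep at 0.00 and -1.23. The nearest were RP24-426M1.3, Cdc37, Dnpep, Poc5, Hmbox1, Lsm6, RP23-31K14.3, RP23-42N14.3, Phldb2 and Cnot1, at distances of 0.00418 to 0.0115. Nearness was measured over 3 libraries only, and 744 of the 13300 genes searched lay within 0.1 of the median point.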

How the data were processed

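Total RNA of 3 Achilles tendon samples was sequenced as RNA-seq and small RNA-seq, with 1 library of each per genotype. According to their methods, the authors removed adaptors, mapped reads with Tophat and bowtie2 (GRCm38) and counted them with HTSeq. Versions, annotation release and strand setting are not given in the sources used here. The raw counts were deposited without normalization, and 463 of 54189 lines that repeated an earlier line were dropped. RPKM values deposited by the authors were used only for levels between genes. Their scaled small RNA values were not used.

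Size factors came from DESeq2 1.42.0 in R 4.3.3, on the pair of libraries compared. Minimum mean normalized counts of 50 (RNA-seq) and 15 (small RNA-seq) and the limits of 1.67 and 0.60 follow the study. Exact Clopper-Pearson 95% intervals were computed in Python 3.11.15 (numpy 2.4.6, pandas 2.3.3, scipy 1.17.1), after tests on simulated data. Figures were drawn with matplotlib 3.10.9. Positions came from GENCODE vM21, promoters and miRNAs from RefSeq.

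The adipocyte genes and all lists were chosen with earlier results of these data known. Of each adipocyte or lipid list, the genes with the highest and lowest ratios to Control are named. Other list genes were named after their values were seen, and list counts under other settings were added at that stage too. Results were recomputed with TMM factors (edgeR 4.0.16), with total counts, taken with or without features above 1% of a library, with size factors over 3 libraries, with a minimum of 10, 200 or none, with limits of 2 and 0.5, after adding 1 to each normalized count, and with calls only where the interval was wholly past the limit.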

Additional observations from a re-analysis of the deposited data

How the results depend on the processing

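Lep was the 1 adipocyte gene called lower in Dicer cKO/Control and in Dicer cKO/ScxHt under each of the 10 alternatives for the calls, and the other counts of called members of the 10 were as reported, with the exception of total counts as the scale. With total counts, the count of the 10 genes higher in ScxHt/Control was 1, Cidec, in place of 0, and the median of the 10 genes was 0.25 on the log2 scale in place of 0.14. Total counts moved every ScxHt/Control value up by 0.11 on the log2 scale. With it the log2 ratio of Fabp4 went from -0.06 to 0.0087 in Dicer cKO/Control and from -0.06 to 0.0482 in ScxHt/Control. Of 150 single-gene values under the other scalings and the pseudocount, 139 stayed within their counting interval, and the 11 that did not were all with total counts. No replicate could be left out, since each genotype had 1 library. No paired analysis was possible because each genotype had 1 library and the groups share no sample number. Depth says nothing of the spread between mice.

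The counts of the other lists, recomputed as an alternative chosen after seeing the data, depended more on the settings, and 536 of 600 were as reported. In Dicer cKO/Control, Cebpd was not called with TMM, with total counts with or without features above 1%, or with size factors over 3 libraries (0 adipogenic factors lower). Triglyceride synthesis had 2 genes higher with TMM, 3 with total counts and 2 without features above 1%. The progenitor genes lower were 0 with total counts, 1 without features above 1% and 1 (Ly6a) with a minimum of 200. With that minimum, 1 further adipocyte gene (Rbp4) and 0 lipolysis genes were higher. With a minimum of 10 or none, 2 lipolysis genes were higher, and with none 1 brown fat gene (Cidea) was lower. With limits of 2 and 0.5, 1 fatty acid synthesis gene (Me1) was higher, 0 lipolysis, triglyceride and uptake genes were higher, and 0 adipogenic, progenitor, receptor and further adipocyte genes were lower, so Lepr and Nnat lost their calls. Tendon (lower), muscle and erythroid genes (higher) then gave 3 each. With the whole interval past the limit, 0 lipolysis, triglyceride and uptake genes were higher, 0 adipogenic and progenitor genes lower, and 3 erythroid genes higher.

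In ScxHt/Control, TMM and size factors over 3 libraries gave 3 macrophage genes higher and 1 endothelial gene lower. Total counts gave 1 triglyceride, 1 progenitor and 1 tendon gene higher and 0 uptake genes lower. A minimum of 10 or none gave 2 progenitor genes higher and 1 Schwann cell gene lower, and none also 1 brown fat gene (Zic1) lower. A minimum of 200 gave 0 further adipocyte genes higher. Limits of 2 and 0.5 gave 0 uptake genes lower and 0 macrophage genes higher. The whole interval gave 0 further adipocyte genes higher, 0 uptake genes lower and 1 macrophage gene higher.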
